A study of Mus musculus with 9 samples.

Results

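The genes of polyamine synthesis and catabolism were taken by name from the table of counts in mouse heart: Odc1, Amd1, Srm, Sms, Smox, Sat1, Azin1, Oaz1 and Oaz2. Of these 9 genes, 7 are described here, out of 13890 genes in the table, and all 7 were among the 13364 genes tested. Amd1 and Oaz1 were not analysed here. Hearts came from 9 male NSG mice, an immunodeficient strain (NOD-scid, IL2Rg null) that accepts human cells and lacks mature lymphocytes, operated on at 8 weeks of age. S (animals 2, 3 and 5) were sham mice given saline in the spleen. T (animals 11, 12 and 15) were labelled as hosts of HCT116, a human colorectal cancer cell line injected into the spleen so that it spreads to the liver. A + T (animals 20, 21 and 22) were labelled as HCT116 hosts that also received weekly ACVR2B/Fc, a soluble receptor that binds activins and myostatin, at 10 mg/kg by the study's methods. The methods and the labels differ on the day of euthanasia, about 3 weeks in the labels. The study asked which cardiac transcripts changed in tumour hosts and whether blocking ACVR2B altered them.

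Polyamines (putrescine, spermidine and spermine) are small cations that bind nucleic acids and are needed for growth and for translation. Ornithine decarboxylase, encoded by Odc1, makes putrescine, and the synthases Srm and Sms add aminopropyl groups to give spermidine and spermine. Catabolism runs through spermidine/spermine acetyltransferase (Sat1) and spermine oxidase (Smox), whereas antizymes (Oaz1, Oaz2) send ornithine decarboxylase to the proteasome and antizyme inhibitor (Azin1) binds antizyme in its place. In heart muscle this pathway has long been studied in hypertrophy. Much of its control acts on translation and protein turnover, which counts of mRNA do not measure.

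Before the results, the T label was checked. Across 429 genes of the study's list, none of them a polyamine gene described here, the fold changes of the hearts labelled T vs. S had a Pearson correlation of 0.275 with the column for tumour host vs. sham and of 0.9999 with the column for ACVR2B/Fc without tumour vs. sham. The medians of the absolute difference were 0.692 and 0.0046 on the log2 scale. The group is therefore called the hearts labelled T throughout, every direction given for it is that of these 3 libraries, and an effect of tumour and one of ACVR2B/Fc cannot be told apart in T vs. S. For the same reason A + T vs. T is given as a difference between labels.

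Libraries held between 12392222 and 19732471 counts. The ribosomal RNA gene Rn45s made up between 4.574% (animal 11) and 19.61% (animal 22) of the counts in a library. Markers of cardiomyocytes, 6 of 6 with counts in every library, summed to between 38510 and 68900 CPM (the count relative to the size of its library, here scaled by TMM, a correction for library composition). In animal 22 of A + T, genes of airway and lung summed to 1278 CPM, and in animal 12 of T to 104.0, against 0.4977 to 2.385 in the others. Values without animals 12 and 22 are given beside the counts of genes that passed the test. Other animals differed too. Atrial markers summed to 1023 to 1135 CPM for S, 66.06 (animal 15) to 1195 (animal 12) for T and 114.8 (animal 20) to 767.5 (animal 22) for A + T. Mesothelium markers ran from 74.94 to 82.28, from 27.41 to 98.14 and from 32.59 to 144.8 in the same order. Adipocyte markers reached 68.18 in animal 12, against at most 15.77 for S and 6.555 for A + T. Alas2, the 1 erythroid marker with counts, ran from 70.8 to 147.3 for S, from 120.2 to 284.5 for T and from 68.4 to 341.2 for A + T. The part of these differences in the levels below was not tested. In RNA of whole tissue, fewer cells of a type and less RNA per cell cannot be told apart.

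All 7 genes were expressed in every heart. On the deposited log2 scale, which is per gene length and so allows genes to be ranked, the mean over the 9 libraries placed Oaz2 highest (6.13, above 94.3% of genes tested), followed by Azin1 (4.58), Odc1 (4.57), Sat1 (4.43), Sms (4.01), Smox (2.62) and Srm (2.55, near the middle of all genes). In S, the log2 level of Sat1 was 3.98 ± 0.087 (SD, n = 3), below Odc1 at 4.63 ± 0.119 and Azin1 at 4.56 ± 0.083 and close to Sms at 3.86 ± 0.096. In the hearts labelled T, Sat1 stood at 4.58 ± 0.179, beside Odc1 at 4.58 ± 0.032. In A + T it was the second highest of the 7, at 4.73 ± 0.236 against 4.50 ± 0.105 for Odc1, a gap smaller than the sum of their SDs. Odc1 and Azin1 in S, and Smox and Srm in every group, were also neighbours that lay within their summed spreads.

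**Figure D1:**
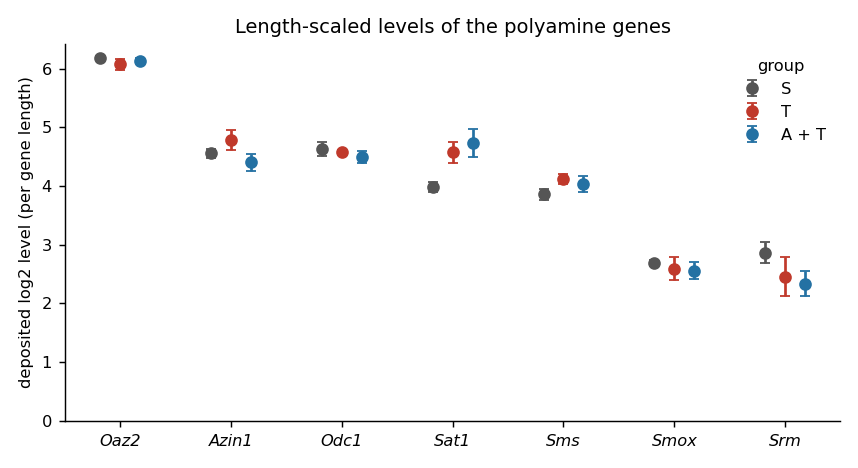
Deposited log2 level per gene length (y axis) of the 7 polyamine genes (x axis) in S, the hearts labelled T and A + T. Points are means of 3 libraries and bars are SD. Oaz2 sits above 6 in every group, and Sat1 moves from 3.98 (S) to 4.58 (T) and 4.73 (A + T).

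Of the 7 genes, 1 had a P-value below 0.05 in T vs. S after Benjamini-Hochberg adjustment in edgeR's quasi-likelihood test. That gene was Sat1, which rose. Among all genes tested, 21.2% passed in either direction, and 1371 of 13364 passed upwards. In A + T vs. S the count was again 1 of 7, Sat1, against 8.31% of all genes in either direction and 624 of 13364 upwards. For A + T vs. T it was 0 of 7, against 5.88%. There 1 gene of 7, Azin1, had an unadjusted P-value under 0.05, as did 2994 of all 13364 genes tested. DESeq2 and edgeR's likelihood ratio test each called 1 in A + T vs. T, Azin1, whereas limma-voom called 0. With animals 12 and 22 left out together, 1 gene was called in A + T vs. S (Sat1) and 1 in A + T vs. T (Azin1). In T vs. S that fit called 3 (Sat1, Sms and Azin1). The share of all genes called is not given for these other fits, so their counts have no background here. At the study's thresholds, P below 0.05 before adjustment with a change of 1.5-fold or more, Sat1 was the 1 gene of 7 counted in T vs. S (14.2% of all genes) and in A + T vs. S (8.91%), and no gene was counted in A + T vs. T (8.11%). The median log2 fold change of the 7 genes was −0.125 in A + T vs. S, −0.054 in T vs. S and −0.071 in A + T vs. T, beside 0.003, −0.004 and 0.010 over all genes tested. With 7 genes, 1 call is a share of 14.3%, below the background of calls in either direction in T vs. S.

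**Figure D2:**
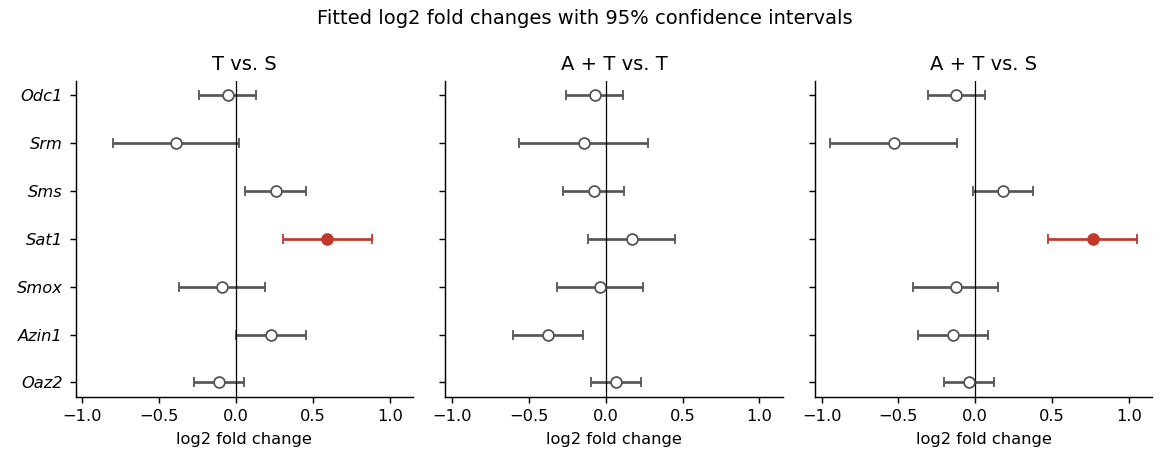
Log2 fold changes (x axis) of the 7 polyamine genes in each of the 3 comparisons, fitted with edgeR. Points are estimates, bars are 95% confidence intervals and filled red points have an adjusted P-value under 0.05. Sat1 is filled in T vs. S (0.60) and in A + T vs. S (0.76), and no gene is filled in A + T vs. T.

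Synthesis begins with Odc1, on chromosome 12 (chr12:17544808-17551502 of GRCm38.p6, the assembly that mm10 names). The S hearts gave 58.7, 69.0 and 62.1 CPM, those labelled T 59.4, 61.3 and 62.2, and the A + T hearts 58.6, 53.6 and 62.0. All 3 groups overlapped, and the highest library was a sham, animal 3. Odc1 differed by −0.12 on the log2 scale in A + T vs. S (95% interval −0.31 to 0.06), by −0.05 in T vs. S (−0.24 to 0.13) and by −0.07 in A + T vs. T (−0.26 to 0.12), with adjusted P-values from edgeR between 0.376 and 0.686. The intervals therefore reach no further than 0.31 from 0 on the log2 scale in any of the comparisons. Odc1 is a textbook target of Myc, which binds the E-box CACGTG together with Max. A RefSeq window runs from 250 bases before to 50 bases after a transcript start of Odc1. It is shown to set this gene, which did not pass the test, beside Sat1, which did. Matches to the GC box GGGCGG are in capitals (either strand). This window lies at chr12:17544623-17544922 on the plus strand:

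Odc1: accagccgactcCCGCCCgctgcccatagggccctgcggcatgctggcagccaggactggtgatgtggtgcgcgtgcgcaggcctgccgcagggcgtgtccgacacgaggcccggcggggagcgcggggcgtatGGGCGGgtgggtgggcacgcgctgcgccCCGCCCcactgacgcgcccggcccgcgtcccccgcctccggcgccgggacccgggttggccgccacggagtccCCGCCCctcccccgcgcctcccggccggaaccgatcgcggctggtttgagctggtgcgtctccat

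Of all 32851 RefSeq mouse windows of this length, 35.7% hold a GC box and 7.15% an E-box. The window of Odc1 held 4 GC boxes and no E-box. It is placed on a start other than the first base of the gene coordinates, and no window on that base was searched. Sequence outside the window, such as the rest of the gene, was not searched, so an E-box there would have been missed. A match is a string of letters and not evidence of binding.

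Srm, spermidine synthase, lies at chr4:148591513-148594619. Its level in S was 11.004, 9.440 and 8.535 CPM, compared with 8.427, 8.025 and 5.520 for the label T and 6.061, 6.102 and 7.887 for A + T. Every S library was above every library of the other groups, although animal 5 of S and animal 11 of T lay side by side. It had the fewest counts of the 7 genes, between 59 (animal 15) and 199 (animal 2), and the largest spread, with a coefficient of variation of up to 21.5%. The log2 fold change was −0.39 (SE 0.19, unadjusted P = 0.0605, adjusted P = 0.16 from edgeR) in T vs. S and −0.53 (SE 0.19, unadjusted P = 0.0161, adjusted P = 0.103) in A + T vs. S. Neither passed the test after adjustment, and for A + T vs. S the other settings gave adjusted P-values between 0.0584 and 0.219, and leaving out single animals up to 0.304. Without animal 5 of S or animal 22 of A + T, Srm joined Sat1 at the study's thresholds in A + T vs. S, at −0.61 and −0.66. Between A + T and T the difference was −0.14 (95% interval −0.56 to 0.28).

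Sms, spermine synthase, is on the X chromosome (chrX:157443851-157492287). Sham hearts held 47.72, 47.05 and 53.24 CPM, hearts labelled T 59.98, 55.46 and 61.47, and A + T hearts 57.89, 59.51 and 50.15. Every heart labelled T was above every S library, while A + T overlapped both. In T vs. S the log2 fold change was 0.26 (SE 0.09, unadjusted P = 0.0151), with an adjusted P-value of 0.0632 from edgeR. Without animal 22 of A + T it was 0.27 with an adjusted P-value of 0.0217, and with only S and T in the fit it was 0.27 with 0.0362. A + T vs. S gave 0.18 (adjusted P = 0.228) and A + T vs. T −0.08 (95% interval −0.27 to 0.12). The 2 synthases thus had opposite signs in T vs. S, though neither passed the test there with all 9 libraries in the fit. The count ratio of Sms to Srm, in which no scaling enters, averaged 5.19 ± 0.966 for S, 8.39 ± 2.38 for T and 8.55 ± 1.90 for A + T (SD, n = 3). This pair was chosen after its values were seen and is given with no test. Its ratio was highest in animal 15 of T (11.14), and animal 22 of A + T (6.359) lay beside animal 5 of S (6.237). RefSeq lists more than 1 start for Sms. The window at chrX:157492238-157492537 on the minus strand is shown because, of the 6 windows found for 5 of the genes, it was the only one with an E-box (capitals):

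Sms: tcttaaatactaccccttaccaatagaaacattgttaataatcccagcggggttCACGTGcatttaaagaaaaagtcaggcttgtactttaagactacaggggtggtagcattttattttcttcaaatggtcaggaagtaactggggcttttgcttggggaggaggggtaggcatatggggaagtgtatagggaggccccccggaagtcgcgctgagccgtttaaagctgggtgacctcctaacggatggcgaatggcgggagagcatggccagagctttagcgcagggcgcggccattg

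Sat1, at chrX:155213126-155216449, encodes the acetyltransferase that marks spermidine and spermine for export or oxidation. The 3 sham hearts were at 21.1, 20.8 and 18.9 CPM, those labelled T reached 26.4, 32.5 and 33.1, and those of A + T reached 34.1, 28.9 and 40.2. All 6 libraries of T and A + T were above all 3 of S, and T and A + T overlapped. Mean levels (± SD, n = 3) were 20.3 ± 1.20 CPM for S, 30.7 ± 3.72 for T and 34.4 ± 5.66 for A + T, from between 261 and 652 counts a library. Sat1 rose by 51.0% in T vs. S (log2 fold change 0.60, SE 0.13, adjusted P = 0.010 from edgeR) and by 69.7% in A + T vs. S (0.76, SE 0.13, adjusted P = 0.00914). Between A + T and T it differed by 0.17 on the log2 scale (adjusted P = 0.481), with a 95% interval from −0.12 to 0.45. The call in T vs. S and that in A + T vs. S were kept with each of the 9 animals left out in turn, at log2 fold changes of 0.55 to 0.69 and 0.64 to 0.87. Both comparisons use the same 3 sham libraries. The fold of T vs. S, 1.51, lay at the study's limit of 1.5 and fell under it without animal 5, 12 or 15, at a log2 fold change of 0.55 each time.

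Sat1 is expressed by many cell types, macrophages among them, so their markers are given beside it. The 4 macrophage genes Cd68, Csf1r, Adgre1 and C1qa, each with counts in every library, summed to between 108.4 and 121.7 CPM for S, between 110.2 and 125.7 for the label T and between 164.1 and 220.1 for A + T. All 4 rose in A + T vs. S and in A + T vs. T, and 0 of 4 passed the test in T vs. S, where Sat1 rose. In T vs. S, markers of other cell types were lower: 4 of 4 of fibroblasts, 4 of 4 of smooth muscle and pericytes and 3 of 4 of endothelium passed the test, all downwards. Fibroblast markers summed to between 1138 and 1356 CPM for S, between 753.8 and 879.3 for the label T and between 915.8 and 1301 for A + T. Those of smooth muscle and pericytes ran from 344.4 to 420.6, from 167.4 to 234.7 and from 206.4 to 304.0 in the same order. For endothelium the ranges were 657.8 to 770.8, 387.9 to 488.2 and 506.6 to 594.6. In A + T vs. T, 2 of 4 fibroblast markers and 1 of 4 of endothelium rose, and in A + T vs. S, 2 of 4 of smooth muscle and pericytes and 1 of 4 of endothelium fell. Of the 6 cardiomyocyte markers, 1 was called higher and 1 lower in T vs. S and 0 in the other comparisons, with sums of 56410 to 68900 CPM for S, 43970 to 53860 for the label T and 38510 to 61480 for A + T. The part of these shifts in the level of Sat1, and in those of the other genes below, was not tested. The RefSeq promoter window of Sat1 is shown because it is the gene of the 7 that passed the test with all 9 libraries in the fit. It lies at chrX:155216400-155216699 on the minus strand, with its 2 GC boxes in capitals:

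Sat1: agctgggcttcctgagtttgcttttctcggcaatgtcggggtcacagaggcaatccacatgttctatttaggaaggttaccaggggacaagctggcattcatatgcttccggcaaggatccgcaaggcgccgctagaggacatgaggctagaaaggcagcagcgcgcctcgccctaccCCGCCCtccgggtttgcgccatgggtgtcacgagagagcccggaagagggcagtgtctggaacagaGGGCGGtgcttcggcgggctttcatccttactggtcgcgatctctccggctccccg

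It held no E-box, no AP-1 site (TGANTCA, in 7.81% of all windows), no TATA box (TATAAA, in 13.6%) and no copy of TATGACTAA (in 0.0974%), the core of the polyamine-responsive element. None of the 6 windows of the polyamine genes held the last 3 of these, whereas 5 of the 6 held a GC box. Sites further from the start were not searched, so the genes may hold these motifs elsewhere.

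Smox, which encodes the oxidase that turns spermine back into spermidine, lies at chr2:131491858-131525183. It stood at 15.04, 14.77 and 13.96 CPM for S, at 12.83, 15.93 and 12.26 for the label T, and at 11.87, 13.64 and 14.60 for A + T. The groups overlapped, and animal 12 of T was the highest library. Smox differed by −0.13 on the log2 scale in A + T vs. S (95% interval −0.40 to 0.15), by −0.09 in T vs. S (−0.37 to 0.19) and by −0.04 in A + T vs. T (−0.32 to 0.24), where its sign changed with upper-quartile normalization. The adjusted P-values from edgeR were 0.554 or more. Of the 2 catabolic enzymes, Sat1 alone passed the test, and the difference between their changes was not tested.

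Among the regulators, Azin1 (chr15:38487430-38519294) was the gene of the 7 that came closest to a call in A + T vs. T. It measured 117, 121 and 131 CPM in the sham hearts, 147, 127 and 158 in those labelled T, and 122, 111 and 100.2 in those of A + T. Each A + T library was below each heart labelled T, and S overlapped both groups. The log2 fold change of A + T vs. T was −0.38 (SE 0.10, unadjusted P = 0.00425, adjusted P = 0.0604 from edgeR), with adjusted P-values between 0.0149 (DESeq2) and 0.262 (library size only) under the other settings. Without animal 12 of T it was −0.46 with an adjusted P-value of 0.0429. T vs. S gave 0.23 (unadjusted P = 0.0496, adjusted P = 0.14) and A + T vs. S −0.15 (95% interval −0.37 to 0.08). The hearts labelled T enter the comparison with sham and that with A + T with opposite sign, so the values 0.23 and −0.38 are not independent.

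Oaz2, at chr9:65676548-65690300, encodes an antizyme and was the most abundant of the 7 per gene length. Levels of 132, 138 and 134 CPM were found for S, of 122, 118 and 134 for the label T, and of 130, 127 and 136 for A + T. The groups overlapped and the spread was small, with a coefficient of variation of at most 6.43% in a group. Oaz2 differed by −0.04 on the log2 scale in A + T vs. S (95% interval −0.20 to 0.12), by −0.11 in T vs. S (−0.27 to 0.05) and by 0.07 in A + T vs. T (−0.09 to 0.23). GENCODE M21 lists processed pseudogenes of Oaz2 and Sms, and the authors' mapping quality limit removed reads that fit a copy equally well, so the counts of these genes are uncertain to that extent.

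**Figure D3:**
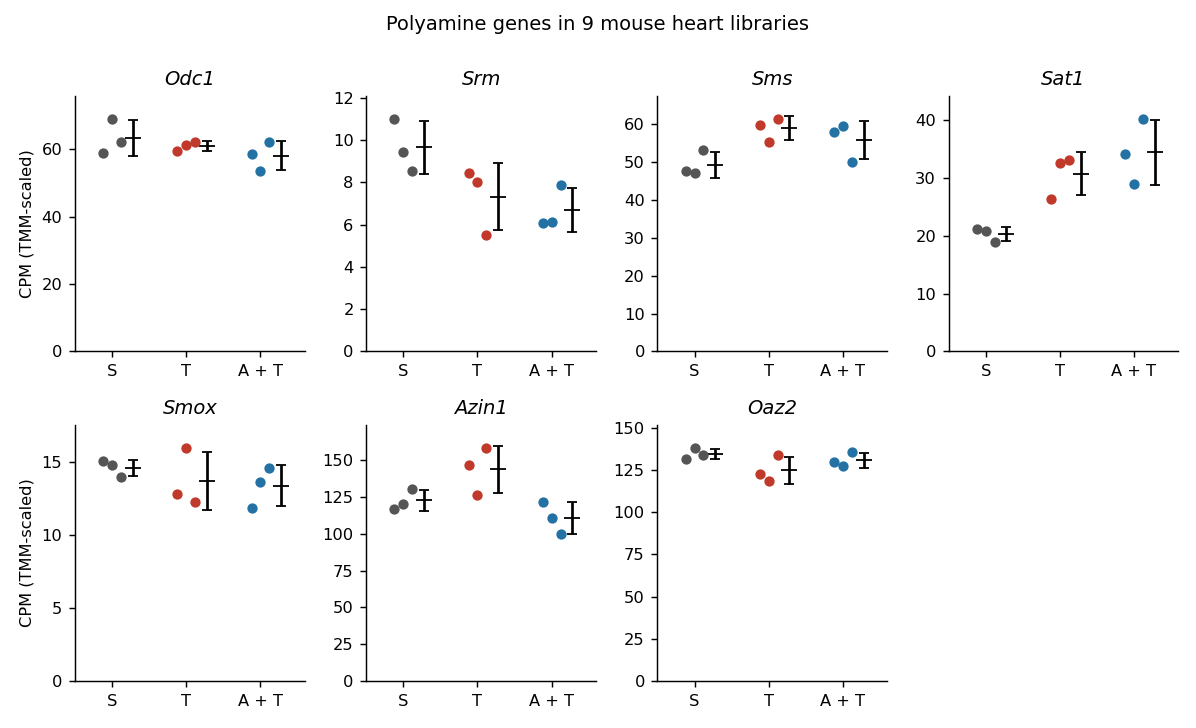
TMM-scaled CPM (y axis, from 0) of each polyamine gene in the 3 libraries of S, of the hearts labelled T and of A + T. Coloured points are animals, and the black marks beside them are the mean and SD. All T and A + T libraries of Sat1 (26.4 to 40.2) lie above S (18.9 to 21.1), whereas Odc1, Smox and Oaz2 overlap between groups.

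By overlap alone, 3 of the 7 genes had no overlap between groups in T vs. S (Srm lower, Sms and Sat1 higher), where 42.6% of all genes tested had none. For A + T vs. T this held for 1 of 7, Azin1, against 25.4%, and in A + T vs. S for 2 of 7, Srm and Sat1, against 32.4%. The counts among the polyamine genes are thus near the background or below it. Pairs of genes within a library were also set against each other, chosen after their values were seen and given with no test. The count ratio of Sat1, which removes polyamines, to Odc1, which begins their synthesis, was 0.359, 0.302 and 0.304 for S, 0.444, 0.530 and 0.532 for the label T, and 0.583, 0.539 and 0.648 for A + T. The 3 groups did not overlap in this ratio. The ratio of Azin1 to Oaz2, inhibitor to antizyme, was 0.887, 0.875 and 0.975 for S, 1.199, 1.07 and 1.18 for the label T, and 0.939, 0.871 and 0.738 for A + T. It was higher in each heart labelled T than in any other library, while S and A + T overlapped.

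**Figure D4:**
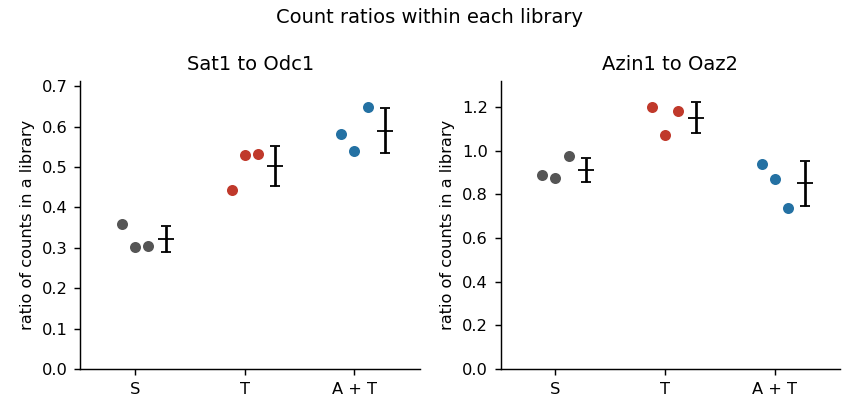
Ratio of the counts of Sat1 to Odc1 (left) and of Azin1 to Oaz2 (right) in each library of S, T and A + T, on axes from 0. Coloured points are animals and black marks are the mean and SD. Sat1 to Odc1 averages 0.321 (S), 0.502 (T) and 0.590 (A + T), and Azin1 to Oaz2 averages 0.912, 1.15 and 0.850.

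The pathway was widened to 36 related genes, of which 30 were tested, in 5 lists: other polyamine enzymes and regulators, the hypusine pathway, polyamine transport, the methionine and methylthioadenosine cycle, and the Myc network. The test was passed by 5 of 30 in T vs. S (3 higher, 2 lower), by 3 of 30 in A + T vs. S (2 higher, 1 lower) and by 2 of 30 in A + T vs. T (1 higher, 1 lower). These are shares of 16.7%, 10% and 6.67%, against 21.2%, 8.31% and 5.88% of all genes tested, so each is near the background or below it. With animals 12 and 22 left out together these counts were 8, 3 and 1, with no share of all genes given for that fit. The hypusine list, for the modification of translation factor eIF5A that uses spermidine, had 0 of 4 genes called in each comparison, with 2 of 4 at an unadjusted P-value under 0.05 in T vs. S. The methionine list, which supplies the aminopropyl donor, had 0 of 8 called in each comparison, with 2 of 8 under 0.05 unadjusted in T vs. S and none in the others. Of all 13364 genes tested, 4731 had an unadjusted P-value under 0.05 in T vs. S, so the 2 unadjusted counts there are no sign of a change in these lists.

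Of the 7 genes of the Myc network, 3 passed the test in T vs. S (2 higher, 1 lower), where 21.2% of all genes did. Mycn, a Myc family factor best known from development, gave 3.32, 4.77 and 4.48 CPM in sham hearts, 0.620, 0.357 and 0.374 under the label T, and 1.55, 1.72 and 1.17 under A + T. The 3 groups did not overlap, and counts were as low as 4 in a heart labelled T. Mycn fell in T vs. S (log2 fold change −3.18, SE 0.31, adjusted P = 0.000184 from edgeR) and in A + T vs. S (−1.501, SE 0.26, adjusted P = 0.00958), and was higher in A + T vs. T (1.68, SE 0.33, adjusted P = 0.020). The last call was lost without animal 12, 20 or 21 (1.504, 1.638 and 1.558), and that in A + T vs. S without animal 3 (−1.39, adjusted P = 0.0504).

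Myc itself gave 3.70, 3.96 and 3.47 CPM in sham hearts, 8.67, 8.74 and 10.9 under the label T, and 8.97, 12.3 and 8.81 under A + T. Both groups lay above S without overlap and overlapped each other. Myc rose 2.52-fold in T vs. S (log2 1.33, SE 0.17, adjusted P = 0.000815 from edgeR) and 2.69-fold in A + T vs. S (1.43, SE 0.17, adjusted P = 0.00244), while Odc1 did not pass the test in either. Max, the partner of both factors, rose in T vs. S (0.42, SE 0.12, adjusted P = 0.0309), a call lost without animal 2, 3, 5, 12 or 15 (0.37 to 0.45). Max differed by 0.09 in A + T vs. S (adjusted P = 0.694).

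Of the transporters, Atp13a3, a P-type ATPase for polyamine uptake from endosomes, gave 62.2, 67.5 and 66.8 CPM in sham hearts, 79.5, 101 and 89.7 under the label T, and 66.3, 71.6 and 62.4 under A + T. Every heart labelled T was above all others. Atp13a3 rose in T vs. S (log2 fold change 0.46, SE 0.10, adjusted P = 0.00778 from edgeR) and was lower in A + T vs. T (−0.43, SE 0.10, adjusted P = 0.0305). The second call was lost without animal 3, 5, 12, 15 or 20 (−0.43, −0.43, −0.34, −0.43 and −0.43), with adjusted P-values of up to 0.084. Slc22a3, an organic cation transporter that also carries polyamines, fell in T vs. S (−0.72, SE 0.19, adjusted P = 0.0225), from 13.2 ± 2.41 to 7.97 ± 1.02 CPM (SD, n = 3), in the comparison in which markers of fibroblasts, smooth muscle and endothelium were also lower. That call was lost without animal 3, 5, 12 or 15 (−0.76, −0.57, −0.70 and −0.63). With library size as the only scaling, Atp13a3 was no longer called in T vs. S (0.42, adjusted P = 0.0827) or in A + T vs. T (−0.41, adjusted P = 0.171), nor was Max in T vs. S (0.39). With only the groups compared in the fit, neither Mycn (1.68, adjusted P = 0.0659) nor Atp13a3 (−0.43, adjusted P = 0.0877) was called in A + T vs. T.

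Arg1, arginase, which makes ornithine, the substrate of Odc1, had 4, 1 and 5 counts in sham hearts, 4, 74 and 20 under the label T, and 21, 473 and 106 under A + T. A + T lay above S without overlap, and animal 21 held the most counts. The log2 fold change of A + T vs. S was 6.08 (SE 1.39, adjusted P = 0.0271 from edgeR), a call lost without animal 2, 3, 5 or 21 (6.19, 5.57, 6.62 and 4.26) and with limma-voom (4.99, adjusted P = 0.189). Its size rests on few sham counts. Arg1 is also expressed by macrophages, whose 4 markers rose in the same comparison, and the part of that shift was not tested.

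**Figure D5:**
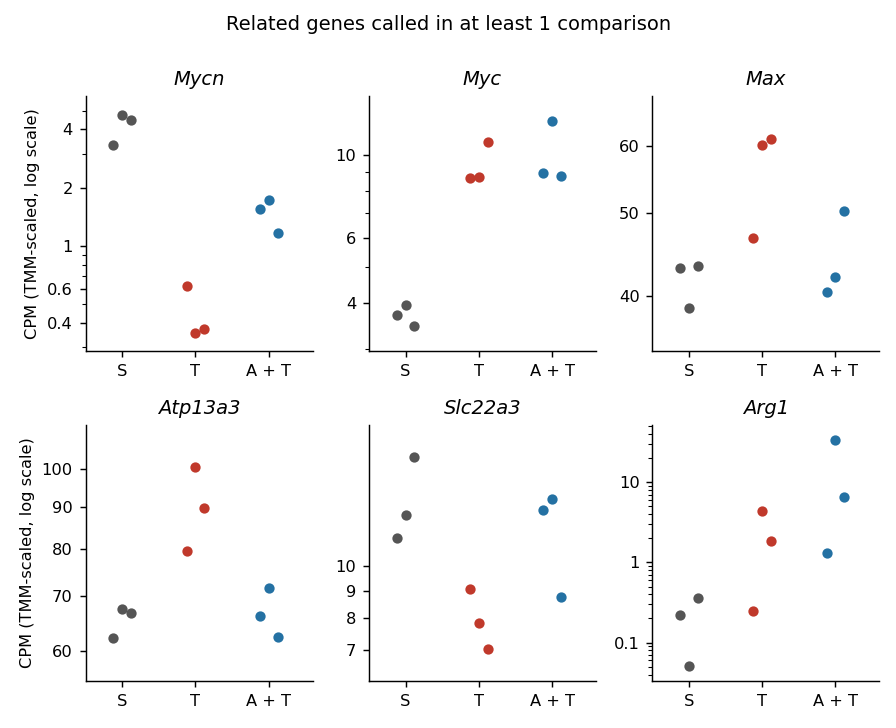
TMM-scaled CPM (y axes, log scale, a range for each gene) of the 6 related genes with an adjusted P-value under 0.05 in at least 1 comparison, in S, the hearts labelled T and A + T. Points are animals. Mycn is lowest in T (0.357 to 0.620), Myc is above S in T and A + T, and the Arg1 libraries of A + T spread from 1.30 to 34.0.

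Over the 9 libraries, the genes whose log2 CPM followed Sat1 most closely were Clec2d (Pearson r = 0.963), Upf3b (0.962), Hint1 (0.958), Rnh1 (0.956) and Tmem176a (0.953). All 5 had higher means in T than in S, as did Sat1, for example Clec2d with 14.2 CPM for S, 22.9 for T and 30.3 for A + T. The genes that followed Odc1 most closely were Proca1 (0.946), Maged2 (0.921), A930017M01Rik (0.914), Gtf2f1 (0.902) and Ube2f (0.882). These are the largest of 13363 correlations for each gene, the libraries share groups and scaling, and the values are given as a description.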

How the data were processed

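RNA of 9 hearts, 3 each of S, T and A + T, was analysed, and groups were taken from the sample labels. The authors isolated total RNA (integrity number of at least 7), enriched mRNA and sequenced 75-base paired ends. They aligned reads to mm10 with STAR and counted unique, strand-matched reads on RefSeq genes (mapping quality of at least 10), and the deposited counts are not normalized. The authors also deposited log2 values, which are taken as scaled by gene length. In the 8489 genes checked, those with at least 100 counts in every library, they differed from log2 CPM by a constant per library and per gene, with an SD over libraries of at most 0.0117. Genes with fewer counts, Srm among them, were not checked. The log2 values were used to rank genes and, with limma, as an alternative.

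The filter removed 526 genes, those under a CPM of 0.5 in more than 4 libraries. All 9 libraries were fitted with edgeR 4.0.16 (R 4.3.3), TMM and the quasi-likelihood test, adjusting P-values by Benjamini-Hochberg across every gene tested. With 3 animals a group, an exact permutation test of 1 gene cannot go below P = 0.1, so none was used. Animals are numbered in the labels, and libraries of a group differed by more than counting noise (chi-square per gene of at least 7.48). The SE and intervals of the fit include this spread between animals as well as counting error. In CPM, 3 counts were 0.152 to 0.242. The polyamine genes and related lists were chosen with earlier results of these data known. Named are all polyamine genes, related genes with an adjusted P-value under 0.05 in any comparison, and the 5 genes most correlated with Odc1 and with Sat1.

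Alternatives were DESeq2 1.42.0, the likelihood ratio test, limma-voom 3.58.1, other scalings and filters, only the groups compared, an adjusted P-value under 0.1, leaving out Rn45s, and each animal left out. Leaving out animals 12 and 22 together was added after seeing the data. Fits were tested on simulated data. Promoter windows and coordinates come from RefSeq for GRCm38.p6, and 5 of 7 genes had a window. Python 3.11.15 and matplotlib 3.10.9 drew the figures.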

Additional observations from a re-analysis of the deposited data

How the results depend on the processing

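The calls of Sat1 in T vs. S and in A + T vs. S were kept under every setting and with each animal left out. Polyamine genes called in T vs. S numbered 2 with only the groups compared or at an adjusted P-value under 0.1, 1 to 2 with each animal left out, and 3 without animals 12 and 22, an alternative chosen after seeing the data. In A + T vs. T they numbered 1 with DESeq2, with the likelihood ratio test, at an adjusted P-value under 0.1 and without animals 12 and 22, and 0 to 1 with each animal left out. At the study's thresholds, T vs. S gave 0 with upper-quartile normalization, with limma-voom, with library size only and without animals 12 and 22, and 0 to 1 with each animal left out. A + T vs. S gave 2 without animals 12 and 22 and 1 to 2 with each animal left out. The share of all genes counted under each alternative is not given, so these counts cannot be set against a background.

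Related genes called in T vs. S numbered 3 with library size only, 8 with only the groups compared, 10 at an adjusted P-value under 0.1, 8 without animals 12 and 22, and 3 to 8 with each animal left out. In A + T vs. T they numbered 1 with library size only, with at least 10 counts in every library and without animals 12 and 22, 0 with only the groups compared, and 0 to 4 with each animal left out. In A + T vs. S they numbered 1 with at least 10 counts in every library and 1 to 3 with each animal left out. Leaving out animal 3, 5, 12 or 15 gave the 3 in T vs. S, animal 22 the 8 there and the 4 in A + T vs. T, animal 12 or 20 the 0 there, and animal 3 the 1 in A + T vs. S. The filter of at least 10 counts tested fewer genes, and the cause of the other shifts was not tested. For these counts too, no share of all genes is given under each alternative, so a rise in number is not a result about the lists.

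Changes of sign touched values near 0 that were not called. Smox in A + T vs. T was 0.0077 with upper-quartile normalization, 0.0173 without animals 12 and 22, and −0.1105 to 0.0906 with each animal left out. Max in A + T vs. S was −0.0105 without animals 12 and 22. With each animal left out, Max in A + T vs. S ranged from −0.0106 to 0.1482, Atp13a3 in A + T vs. S from −0.0249 to 0.0793, Myc in A + T vs. T from −0.0776 to 0.2007 and Odc1 in T vs. S from −0.0989 to 0.0135. No paired analysis was possible because the labels give the groups no shared replicate numbers. Depth limits Srm, Mycn and Arg1 most, with counts of 59, 4 and 1 in their lowest library.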
